A study of Rattus norvegicus with 8 samples.

Results

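The nuclear-encoded genes of the mitochondrial respiratory chain were followed in rat brain shortly after an experimental stroke, with and without pretreatment with candesartan. They were taken by name: genes whose symbol begins with Nduf, Uqcr or Atp5, genes whose symbol begins with Cox4 to Cox8, and Sdha, Sdhb, Sdhc and Sdhd. The rule did not use any measured difference. It found 84 genes with 89 probe sets among the 10411 genes that the array annotation names by a single symbol. Cytochrome c (Cycs) also belonged to the rule but had no probe set with a single symbol, and 9 probe sets shared between symbols, each naming a chain gene, were left out. The brightest probe set stood for each gene. Of the 84 genes, 79 exceeded a signal of 916.3, the 40th percentile of all signals, on at least 2 of the 8 arrays and were tested among 10310 such probe sets. They comprised 35 genes of complex I and 5 Ndufaf genes for complex I assembly. A further 4 belonged to complex II, 7 to complex III, 12 to complex IV and 16 to complex V. The 12 include Cox6c-ps1, a pseudogene by its name, which the rule took in and which stayed in the complex IV counts and medians.

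Male Wistar rats aged 7 weeks received vehicle (saline) or candesartan, a blocker of the angiotensin II type 1 receptor, at 0.1 mg/kg given 2 times daily over 5 days. They then had a sham operation or a stroke, made by blocking the right middle cerebral artery for 90 min and letting blood flow return. Total RNA came from a segment of the right hemisphere, taken at 2 h after the surgery. The labels do not say whether the 2 h count from the start or the end of the blockage. Each array carried RNA pooled from 2 rats, and each of the 4 groups had 2 pools described as independent, here called sham vehicle, stroke vehicle, sham candesartan and stroke candesartan 1 and 2. The protocol text of stroke candesartan 2 mentions no pretreatment, so that its group rests on its description and source. The labels do not say how much of the segment was infarcted, and the tissue was bulk brain, in which fewer cells of a type and less RNA per cell cannot be told apart.

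The respiratory chain sits in the inner mitochondrial membrane. Complex I takes electrons from NADH and complex II takes them from succinate. Complex III passes them to cytochrome c, complex IV hands them to oxygen, and complex V uses the resulting proton gradient to make ATP. Neurons depend heavily on this pathway, and ischaemia stops it at complex IV for want of oxygen. Most of the subunits are encoded in the nucleus, and NRF1, the ETS factor GABP, YY1 and the oestrogen-related receptors are textbook regulators of their promoters.

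Short pieces of 4 promoters show what the start regions of these genes look like and which letters were searched. Each is written on the strand of the gene, from RefSeq's GRCr8 assembly, with the motif in capitals and 30 bases of context where the upstream window allowed it. The Ndufv3 piece lies at chr20:9613717-9613785 on the plus strand, and the Sdha piece at chr1:30764477-30764545 on the plus strand, both with the NRF1 motif. The Cox5b piece lies at chr9:46417793-46417836 on the plus strand, and the Ndufs1 piece at chr9:72073768-72073834 on the minus strand, both with the ETS motif, which runs on the opposite strand in Ndufs1.
Ndufv3: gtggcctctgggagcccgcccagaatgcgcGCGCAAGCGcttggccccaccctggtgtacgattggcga
Sdha: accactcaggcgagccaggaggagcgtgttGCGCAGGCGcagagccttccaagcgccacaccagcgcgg
Cox5b: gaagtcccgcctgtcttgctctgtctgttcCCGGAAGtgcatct
Ndufs1: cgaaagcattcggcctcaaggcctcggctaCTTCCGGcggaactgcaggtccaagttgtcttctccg

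Of the 84 genes, 76 had a promoter entry of 300 bases, from 250 before the start to the bases just after it. The NRF1 letters GCGCANGCG stood on either strand in 19 of the 76 (25%), against 8.04% of 18999 promoters of the table. The ETS letters CCGGAAG stood in 21 (27.6%, against 11.2%), the YY1 letters ATGGCGGC in 12 (15.8%, against 3.53%) and the oestrogen-related receptor letters TNAAGGTCA in 3 (3.95%, against 0.995%). At least 1 of the 4 motifs was found in 41 of the 76. No matches of different motifs overlapped in any member. The windows of Uqcr10 and of Atp5f1b, Atp5f1d and Atp5f1e, described below, held none of these letter strings. The 18999 promoters were those of protein-coding genes and were not matched to the members for base composition or signal. The higher shares can therefore not be called particular to chain genes. Such a match is a description of letters and was not tested for binding.

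The values are probe set signals on a linear scale, compared as log2(signal + 369.9), with the 20th percentile of all signals as the added offset, which understates differences of dim genes. The arrays had 2% trimmed means within 0.000426% of each other. Stroke candesartan 2 stood apart from the others: averaged over its pairings, its correlation was 0.959, against 0.976 to 0.978 for the remaining 7, and its brightest 10% of probe sets held 57.6% of the total signal, against 51.3% to 54.1%. The members together held 2.46% to 2.74% of the signal. Fos and Hspa1a, genes of the early response to injury and of the heat shock response, were called higher after stroke with either pretreatment. Fos had signals of 755 to 965 on the sham arrays and 6332 to 10899 on the stroke arrays. Calls needed an adjusted p under 0.05 in limma's moderated test, with Benjamini-Hochberg adjustment over all 10310 probe sets. With 2 pools against 2, an exact test of a single gene cannot give a p below 0.333.

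No respiratory chain gene was called in any of the 6 comparisons. Among all tested probe sets, 0.262% were called for stroke against sham with vehicle, 0.242% with candesartan and 0.417% over both pretreatments. For candesartan against vehicle the share was 0.0679% after stroke and 0% after sham, and for the interaction, the difference between both stroke effects, it was 0.0194%. The smallest adjusted p of any member was 0.137 (limma), for Uqcr10 over both pretreatments. At an unadjusted p under 0.05, limma found 0 members higher and 1 lower after stroke with vehicle, where 4.53% and 2.51% of all probe sets passed. With candesartan it found 7 higher and 2 lower (5.50% and 6.92% of all). For candesartan against vehicle after stroke it found 15 higher and 1 lower (5.43% and 7.68%). The counts either way were 2 over both pretreatments (9.52%), 2 for candesartan after sham (3.92%) and 7 for the interaction (8.87%). The shares of all probe sets are not matched for brightness. The 2578 brightest tested probe sets held 68 of the 79 members. For candesartan against vehicle after stroke, 479 of these 2578 passed either way, and 15 of the 68 members did. For stroke with candesartan 397 and 9 passed, and for stroke with vehicle 175 and 1.

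The calls depended on 1 array. When stroke candesartan 1 was left out, stroke candesartan 2 stood alone in its group and was assumed to vary like the others, and members were then called by limma. They were 10 for stroke with candesartan (Atp5f1b, Atp5f1d, Atp5f1e, Atp5mk, Cox6c and Ndufv3 higher, Atp5me, Atp5pb, Ndufs1 and Sdhd lower). For Sdhd this rests on the brighter of its probe sets, while the dimmer had its highest value on stroke candesartan 2. The called members were 16 for candesartan after stroke, 4 for the interaction and 2 over both pretreatments (Atp5pb and the same Sdhd probe set). Of all probe sets, 8.10%, 9.56%, 2.87% and 3.77% were called in the same fits. Leaving out any of the other 7 arrays gave no called member in any comparison.

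Across the 79 tested members, the median difference between stroke and sham was -0.063 with vehicle, with 23 of 79 members above 0. The median over all tested probe sets was 0.011, with 52.5% of them above 0. With candesartan the member median was 0.10, with 55 of 79 above 0, against -0.028 for all (44.7% above 0). For candesartan against vehicle after stroke it was 0.14, with 61 of 79 above 0, against -0.031 for all (44.2% above 0). The stroke vehicle and stroke candesartan pools each enter 2 of these 3 comparisons, so that the values share arrays. Of the 79 members, 38 were lower with vehicle and higher with candesartan after stroke, 18 were lower in both, 17 higher in both and 6 higher with vehicle and lower with candesartan. The share of all probe sets with these pairs of signs was not taken. The median over both pretreatments was 0.025 and for candesartan after sham -0.020. Both are smaller than 0.051, the SD of the member median between pools of a group, and both changed sign when 1 array was left out, to -0.018 without stroke candesartan 2 and 0.034 without sham candesartan 1.

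**Figure D1:**
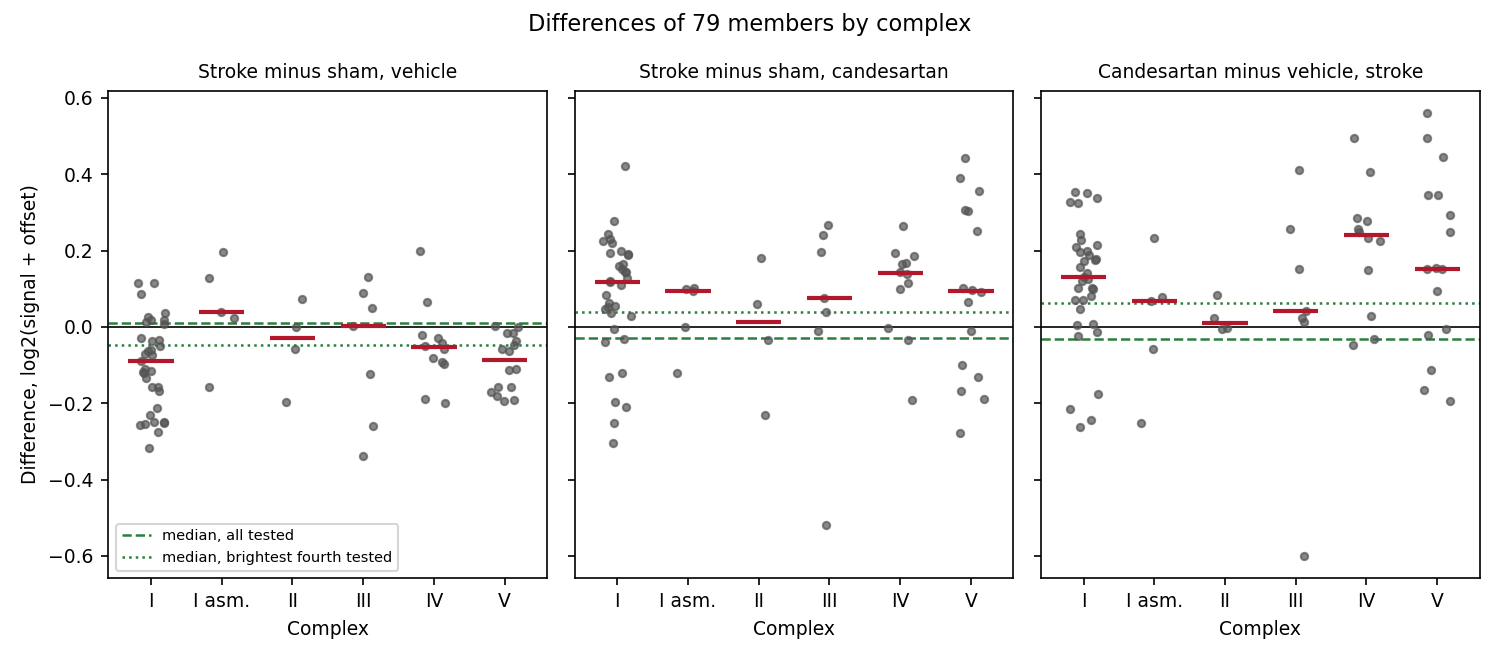
Differences in log2(signal + offset) of the 79 tested members (grey points), by complex on the x axis, for 3 comparisons; red bars are medians of a complex, and green lines are the medians of all tested probe sets (dashed) and of the brightest 25% of them (dotted). The red bars lie mostly below 0 for stroke with vehicle and above 0 in the panels with stroke candesartan, and Uqcr10 is the lowest point of the latter panels.

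The members are bright genes: 68 of 79 (86.1%) lay in the brightest 25% of the tested probe sets, with a mean signal of at least 4710.5. In that 25% the median stroke difference was -0.046 with vehicle and 0.038 with candesartan, and the median for candesartan after stroke was 0.061. These have the signs of the member medians. Above 0 lay 37.7%, 57.1% and 61.4% of that 25%, against 29.1%, 69.6% and 77.2% of the members. The 11 members outside that range had medians of 0.018, -0.0015 and -0.024 in the same comparisons. Members with the NRF1 letters had a median stroke difference of -0.029 with vehicle and 0.066 with candesartan, and those without had -0.069 and 0.10. Those with the ETS letters had -0.073 and 0.14, and those without -0.054 and 0.074. Under quantile normalization the member medians shrank to -0.018, 0.0013 and 0.033, and under cyclic loess to -0.0086, 0.0074 and 0.034. No sign flipped in these 3 comparisons, while the median over both pretreatments turned to -0.0088 under quantile normalization. Centring the arrays on their medians widened them to -0.13, 0.16 and 0.22, and it shifted the median interaction of all tested probe sets by 0.13. The interaction median of the members exceeded that of the brightest 25% of probe sets by 0.087 under the deposited scaling, 0.032 under quantile normalization and 0.036 under cyclic loess.

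By array, the median deviation of the members from their means over the 8 arrays was 0.0085 and -0.010 in the sham vehicle pools and -0.038 and -0.089 in the stroke vehicle pools. It was -0.066 and 0.037 in the sham candesartan pools and 0.041 and 0.13 in the stroke candesartan pools. Stroke vehicle 2 was lowest and stroke candesartan 2 highest, and the stroke candesartan 1 value lay close to that of sham candesartan 2. Under quantile normalization sham candesartan 2, at 0.051, lay above both stroke candesartan pools, at 0.021 and 0.043, and under cyclic loess it lay above stroke candesartan 1. The median with candesartan was 0.053 without stroke candesartan 2, 0.053 without sham candesartan 1 and 0.17 without stroke candesartan 1. With vehicle it was -0.036 without stroke vehicle 2. For candesartan after stroke, leaving out 1 array gave 0.095 to 0.17.

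**Figure D2:**
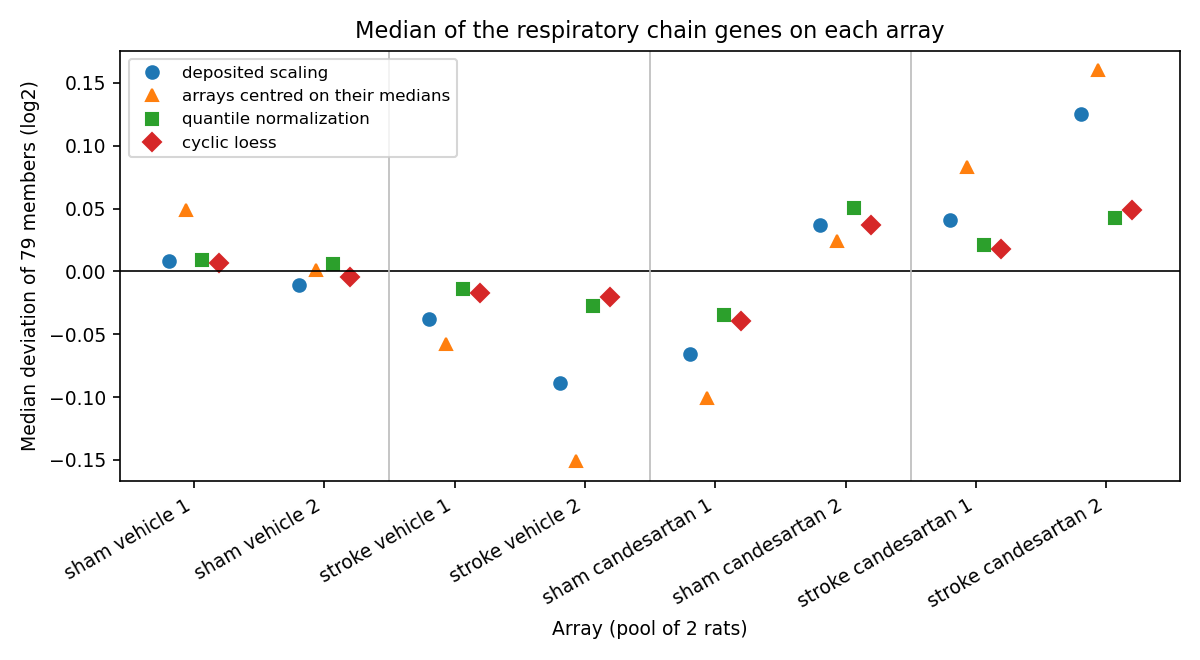
Median deviation (log2, y axis) of the 79 members on each array (x axis) under the deposited scaling and 3 other scalings, with 1 symbol per scaling. Under the deposited scaling the arrays spread from -0.089 to 0.13, and the quantile and loess symbols lie nearer to 0 on both stroke vehicle and both stroke candesartan arrays.

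Both stroke vehicle pools lay below both sham vehicle pools in 32 members and above them in 6, against 20.6% and 24.6% of all probe sets (31.1% and 15.2% of the brightest 25%). With candesartan, 26 members lay above and 3 below (16.9% and 21.4% of all, 26.0% and 14.6% of the brightest 25%). For candesartan against vehicle after stroke, 34 lay above and 5 below (18.0% and 23.8% of all, 33.2% and 15.6% of the brightest 25%). After sham, 7 lay above and 11 below (18.9% and 14.9%). Under the deposited scaling, in none of the 79 did all 4 stroke pools lie above or all below the 4 sham pools, where 2.83% and 2.39% of all probe sets did. Under quantile normalization the counts with vehicle were 23 below and 13 above, against 22.4% and 21.4% of all probe sets. With candesartan they were 18 above and 10 below (18.0% and 18.8% of all), and for candesartan after stroke 25 above and 8 below (19.98% and 20.1%).

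Stroke candesartan 2 gave the highest of the 8 values in 37 members and the lowest in 13, against 22.6% and 27.6% of all probe sets. Stroke vehicle 2 gave the lowest value in 24 members, against 10.2% of all. It did so in 12 members under quantile normalization and 10 under cyclic loess, against 11.2% and 10.5% of all. Under quantile normalization stroke candesartan 2 was highest in 27 and lowest in 22 members, against 23.8% and 25.8% of all. The deviations on that array ranged from -0.47 to 0.63. Across the 79 members, brighter genes deviated more upward on it (Spearman's rho 0.31 with mean signal), and more downward on stroke vehicle 2 (rho -0.42). Across all tested probe sets rho was 0.11 and -0.26 on the same arrays. These correlations run across genes of single arrays and are descriptions, since genes are not independent replicates. In absolute size, the pools of a group differed by a median of 0.070 for sham vehicle, 0.10 for stroke vehicle, 0.15 for sham candesartan and 0.23 for stroke candesartan. The limma test pools this spread over groups.

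**Figure D3:**
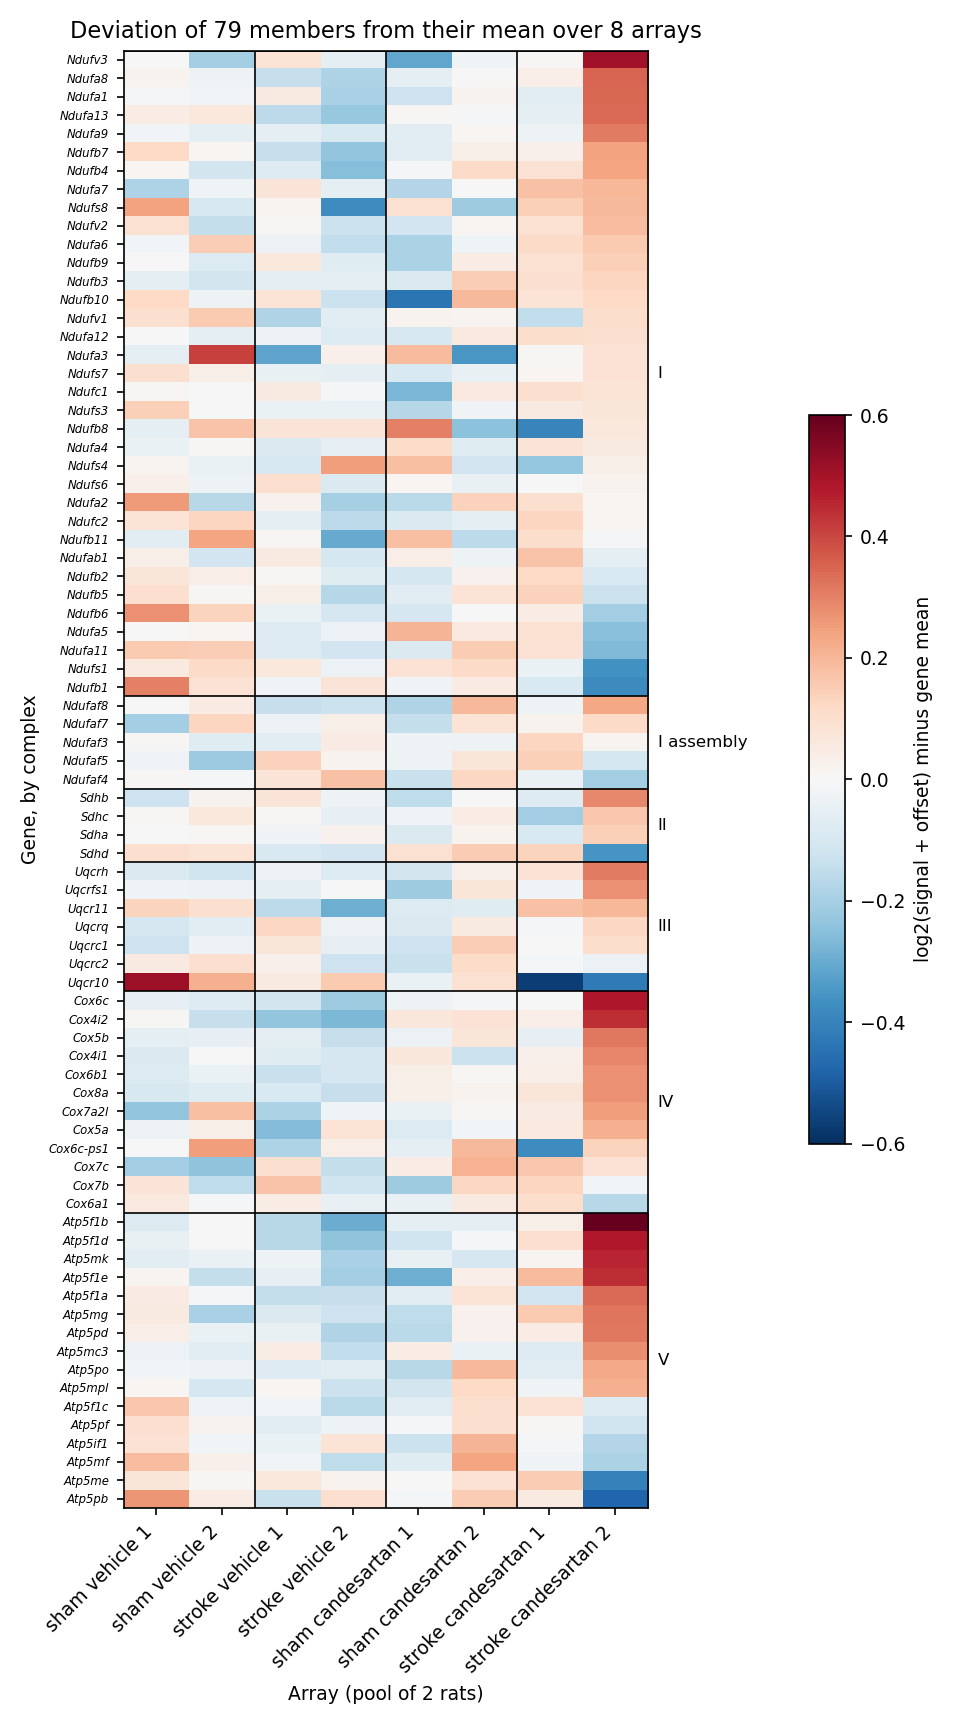
Deviation of each of the 79 members (rows, by complex) from its own mean over the 8 arrays (columns), in log2(signal + offset), red above and blue below, with colours saturating at 0.6. The last column, stroke candesartan 2, holds both the strongest red rows, led by Atp5f1b, and strong blue rows such as Atp5pb and Ndufb1, while Uqcr10 is blue in both stroke candesartan columns.

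Complex I had a median stroke difference of -0.090 with vehicle (9 of 35 genes above 0) and 0.12 with candesartan (26 of 35 above 0). Ndufv1, the flavoprotein subunit that binds NADH, gave signals of 16399 and 17103 in the sham vehicle pools, 13441 and 14622 in the stroke vehicle pools, 15533 and 15489 in the sham candesartan pools and 13766 and 16492 in the stroke candesartan pools. Its stroke vehicle pools lay below both sham vehicle pools, and the difference was -0.25 ± 0.12 (SE; limma adjusted p = 0.724). Ndufs1, the largest iron-sulphur subunit of the electron path, gave 8232 and 8581 in sham vehicle and 8263 and 7688 in stroke vehicle, which overlap. It gave 8411 and 8591 in sham candesartan and 7661 and 6055 in stroke candesartan, where both stroke pools were lower. With candesartan the difference was -0.30 ± 0.13 (SE; limma adjusted p = 0.375).

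Ndufv3, an accessory subunit of the NADH-binding part, was highest in stroke candesartan 2. It gave 5431 and 4679 and 5774 and 5230.0 in the sham and stroke vehicle pools and 4321 and 5359.9 and 5464 and 7882 in the sham and stroke candesartan pools. With candesartan the difference was 0.42 ± 0.17 (SE; limma adjusted p = 0.366), and most of it came from the second stroke pool. Its other, dimmer probe set was not above the filter. Among membrane arm subunits, Ndufb6 gave 9579.5 and 8647 in sham vehicle and 7625 and 7290.1 in stroke vehicle, a difference of -0.28 ± 0.12 (SE; limma adjusted p = 0.705), which had the smallest p of complex I in that comparison. It gave 7292 and 7837 and 8106 and 6731 in the sham and stroke candesartan pools, which overlap. Ndufb1 was lower in both stroke candesartan pools, at 5567 and 4494, than on any other array, where it ranged from 5857 to 7444. Its difference from stroke vehicle was -0.26 ± 0.13 (SE; limma adjusted p = 0.430).

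Ndufa8, an accessory subunit, gave 19305 and 18637 in stroke vehicle and 21849 and 27142 in stroke candesartan, against 21566 and 20816 and 20472 and 21282 in the sham pools of the same pretreatments. Candesartan minus vehicle after stroke was 0.35 ± 0.12 (SE; limma adjusted p = 0.281), the smallest p of complex I there. The Ndufs8 gene, an iron-sulphur subunit, and Ndufa3 varied widely between pools of 1 group. The former gave 7469 and 5829 in sham vehicle and 6318 and 4725 in stroke vehicle, and the latter 12885 and 17949 and 10719 and 13725. Ndufa4, named as a complex I gene but known to associate with complex IV, was nearly level, from 26569.7 to 30459 over the 8 arrays, with -0.051 ± 0.11 (SE; limma adjusted p = 0.973) for stroke with vehicle.

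The assembly factors of complex I stood lower in signal than the subunits' brightest members and had medians of 0.039 with vehicle and 0.094 with candesartan. Ndufaf5 gave 2738 and 2338 in sham vehicle and 3093 and 2822 in stroke vehicle, a difference of 0.20 ± 0.14 (SE; limma adjusted p = 0.855), without overlap. Ndufaf4 also lay higher in stroke vehicle, at 2368 and 2561, than in sham vehicle, at 2233 and 2213. In stroke candesartan it gave 2149 and 1879, and candesartan minus vehicle after stroke was -0.25 ± 0.14 (SE; limma adjusted p = 0.464).

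Complex II, which is also an enzyme of the citric acid cycle, had medians near 0, at -0.028 with vehicle and 0.013 with candesartan. Sdha, the flavoprotein that oxidises succinate, gave 16808 and 16899 in sham vehicle, 16574 and 17141 in stroke vehicle, 15795 and 17074 in sham candesartan and 15782 and 18623 in stroke candesartan. All 4 groups overlap. Its stroke difference was 0.00020 with vehicle, with a 95% interval of -0.26 to 0.26 that is not adjusted for the number of genes, and 0.061 with candesartan (-0.20 to 0.32). Sdhb, the iron-sulphur subunit, ranged from 11538 to 15793 and Sdhc, a membrane anchor, from 12265 to 15978. Both had their highest value in stroke candesartan 2.

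Sdhd, the other membrane anchor, had a pair of probe sets that disagreed. The brighter gave 10529.8 and 10394 in sham vehicle, 9168 and 9011 in stroke vehicle, 10450.4 and 10915 in sham candesartan and 10784 and 7582 in stroke candesartan. The dimmer gave 4759 and 4404, 4514 and 3611, 4302 and 4302 and 4540.1 and 6838 in the same order. On stroke candesartan 2 the brighter probe set had its lowest value and the dimmer its highest. No direction can therefore be given for this gene on that array.

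Complex III held the members with the largest negative difference for stroke with candesartan and with the smallest interaction p. Uqcr10, a small subunit of the cytochrome bc1 complex, gave 21376 and 17314 in sham vehicle, 15463 and 16592 in stroke vehicle, 14439.6 and 15858 in sham candesartan and 9932 and 10986 in stroke candesartan. Both stroke candesartan pools lay below all 6 other arrays. The stroke difference was -0.52 ± 0.13 (SE; limma adjusted p = 0.198) with candesartan, -0.26 ± 0.13 (SE; limma adjusted p = 0.731) with vehicle and -0.39 ± 0.092 (SE; limma adjusted p = 0.137) over both. Candesartan minus vehicle after stroke was -0.60 ± 0.13 (SE; limma adjusted p = 0.194), and after sham it was -0.34 ± 0.13 (SE; limma adjusted p = 1.000). Without stroke candesartan 2 the difference with candesartan was -0.59. That array had the higher of the stroke candesartan values, so that leaving it out could only widen the negative difference. Under quantile normalization the difference was -0.58 (limma adjusted p = 0.0996), which did not pass the adjusted threshold.

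Uqcr11, another small subunit of complex III, gave 26407 and 25755 in sham vehicle and 21546 and 19601 in stroke vehicle, a difference of -0.34 ± 0.11 (SE; limma adjusted p = 0.476). It was the only member with an unadjusted p under 0.05 in that comparison. In sham candesartan it gave 22712 and 22835 and in stroke candesartan 27202 and 27715, a difference of 0.27 ± 0.11 (SE; limma adjusted p = 0.359). The stroke pools thus lay below sham with vehicle and above sham with candesartan, as they did in other members such as Ndufa8 and Atp5f1d. How many of all probe sets had this pattern was not counted. The pools of a group were close, though less so in stroke vehicle. The interaction, 0.60 ± 0.15 (SE; limma adjusted p = 0.446), was not called, and candesartan minus vehicle after stroke was 0.41 ± 0.11 (SE; limma adjusted p = 0.239). Without stroke candesartan 2, that last difference was 0.40 (limma adjusted p = 0.268), and under quantile normalization 0.25 (limma adjusted p = 0.365).

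The core proteins of complex III were nearly level. Uqcrc1 ranged from 16080.3 to 19489.5 and Uqcrc2 from 18480.3 to 21962 over the 8 arrays, with stroke differences with vehicle of 0.088 and -0.12. Uqcrq, a small subunit that binds ubiquinone, gave 12792 and 13078 in sham vehicle and 15026 and 13398 in stroke vehicle, a difference of 0.13 ± 0.12 (SE; limma adjusted p = 0.894). Its stroke candesartan pools, at 13659.7 and 15033, overlapped those of sham candesartan, at 12933 and 14265. Within this complex, Uqcr10 was lower in both stroke candesartan pools than in the other 6 arrays, and Uqcr11 and Uqcrh were higher. Uqcrh gave 22169 and 25988 in stroke candesartan and at most 21311 elsewhere.

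Complex IV, cytochrome c oxidase, had a median of -0.053 for stroke with vehicle (2 of 12 above 0) and 0.14 with candesartan (9 of 12 above 0). Candesartan minus vehicle after stroke had a median of 0.24, the highest of the complexes. Cox4i1, the main form of the regulatory subunit IV, gave 47051 and 49871 in sham vehicle, 47505 and 46632 in stroke vehicle, 52335 and 45684 in sham candesartan and 51126 and 61223 in stroke candesartan. The stroke pools overlapped with the sham pools of the same pretreatment, and only stroke candesartan 2 stood out. Candesartan minus vehicle after stroke was 0.25 ± 0.13 (SE; limma adjusted p = 0.430).

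Cox4i2, the alternative form of subunit IV that is induced by low oxygen in some tissues, was dim. It gave 1064 and 929 in sham vehicle and 842 and 815 in stroke vehicle, both stroke values lying below both sham values. In sham and stroke candesartan it gave 1126 and 1145 and 1096 and 1574, and candesartan minus vehicle after stroke was 0.49 ± 0.18 (SE; limma adjusted p = 0.303). Cox6c, a small subunit, gave 40975 and 40246 and 39338 and 36563 in sham and stroke vehicle and 41594 and 42041 and 42555 and 59487 in sham and stroke candesartan. Stroke candesartan 2 alone was far above the rest, and candesartan minus vehicle after stroke was 0.40 ± 0.15 (SE; limma adjusted p = 0.300). The probe set of Cox6c-ps1, a pseudogene by its name, may share sequence with Cox6c, so that its level is uncertain.

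Cox7c, a further small subunit, was higher in both stroke vehicle pools, at 21459.7 and 18133, than in sham vehicle, at 17343 and 16919. Its difference was 0.20 ± 0.12 (SE; limma adjusted p = 0.802). The candesartan pools gave 20705 and 23246 after sham and 22478 and 21355 after stroke. Cox6a1, the form of subunit VIa found in brain and liver, ranged from 23291 to 28146, with its lowest value in stroke candesartan 2. Cox8a gave 38409.8 and 37177 in stroke vehicle and 43022 and 49534 in stroke candesartan, while its sham candesartan pools, at 42030.1 and 41538, already lay above those of sham vehicle, at 38230.0 and 38907.

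The 5 members below the filter were Ndufa4l2, Cox6a2, Cox6b2, Cox7a1 and Cox8b. Cox6a2, Cox7a1 and Cox8b are the heart and skeletal muscle forms of their subunits, Cox6b2 is the testis form, and Ndufa4l2 is a target of the hypoxia-inducible factor. Cox6a2 ranged from 175 to 811 and Cox7a1 from 401 to 769 over the 8 arrays. Ndufa4l2 gave 551 and 692 in sham vehicle, 668 and 653 in stroke vehicle, 754 and 772 in sham candesartan and 668 and 347 in stroke candesartan. Both of its stroke candesartan values lay below both sham candesartan values. No test was made at these signals.

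Complex V, the ATP synthase, had a median of -0.087 for stroke with vehicle (2 of 16 above 0) and 0.095 with candesartan (10 of 16 above 0). Its catalytic subunit Atp5f1b gave 46853 and 49744 in sham vehicle, 44262 and 40338 in stroke vehicle, 47638 and 47599.7 in sham candesartan and 50832 and 76889.9 in stroke candesartan. Stroke candesartan 2 lay far above its partner pool, which was itself above the other 6 arrays. Candesartan minus vehicle after stroke was 0.56 ± 0.17 (SE; limma adjusted p = 0.257), the largest positive difference of a member in that comparison. It was 0.26 (limma adjusted p = 0.408) without stroke candesartan 2 and 0.21 (limma adjusted p = 0.416) under quantile normalization.

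Among the subunits of the central stalk, Atp5f1d and Atp5f1e were likewise highest in stroke candesartan, while Atp5f1c was not. Atp5f1d gave 17603 and 18157 in sham vehicle, 16136 and 15323 in stroke vehicle, 16712 and 18077 in sham candesartan and 19525 and 25530.0 in stroke candesartan, and candesartan minus vehicle after stroke was 0.50 ± 0.13 (SE; limma adjusted p = 0.250). Atp5f1e gave 17261 and 15388, 16462 and 14732, 13849.7 and 17545 and 19484 and 23336 in the same order, and its stroke difference with candesartan was 0.44 ± 0.15 (SE; limma adjusted p = 0.292). In both genes the stroke candesartan pools were the 2 highest of the 8 arrays, as in other members such as Atp5f1b, Uqcr11, Cox6c and Cox8a. How many of all probe sets had this order was not counted. Atp5f1c gave 29018 and 25782 in stroke candesartan, against 26027 and 29178 in sham candesartan and 30565 and 26769 in sham vehicle. Its stroke difference with candesartan was -0.011. Atp5f1a, the other large subunit of the catalytic head, gave 24793 and 24873 in stroke vehicle and 25244 and 34687 in stroke candesartan, with only the second of the latter above the sham range of 26177 to 28994.

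Other complex V genes were low on the array that stood apart. Atp5pb, a subunit of the peripheral stalk, gave 50924 and 43693 in sham vehicle, 38589 and 45372 in stroke vehicle, 41951 and 46984 in sham candesartan and 43962 and 30366 in stroke candesartan. Stroke candesartan 2 was the lowest array, and the stroke difference with candesartan was -0.28 ± 0.17 (SE; limma adjusted p = 0.535). Atp5mf, a small membrane subunit, was lower in stroke vehicle, at 21899 and 19921, than in sham vehicle, at 25311 and 22687, with a difference of -0.20 ± 0.14 (SE; limma adjusted p = 0.851). Atp5mk, a further membrane subunit, ranged from 24504 to 38617, highest in stroke candesartan 2. Atp5if1, the inhibitor that limits ATP hydrolysis when respiration stops, ranged from 8960.4 to 11749.6, with a stroke difference of -0.017 ± 0.13 (SE; limma adjusted p = 0.993) with vehicle.

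**Figure D4:**
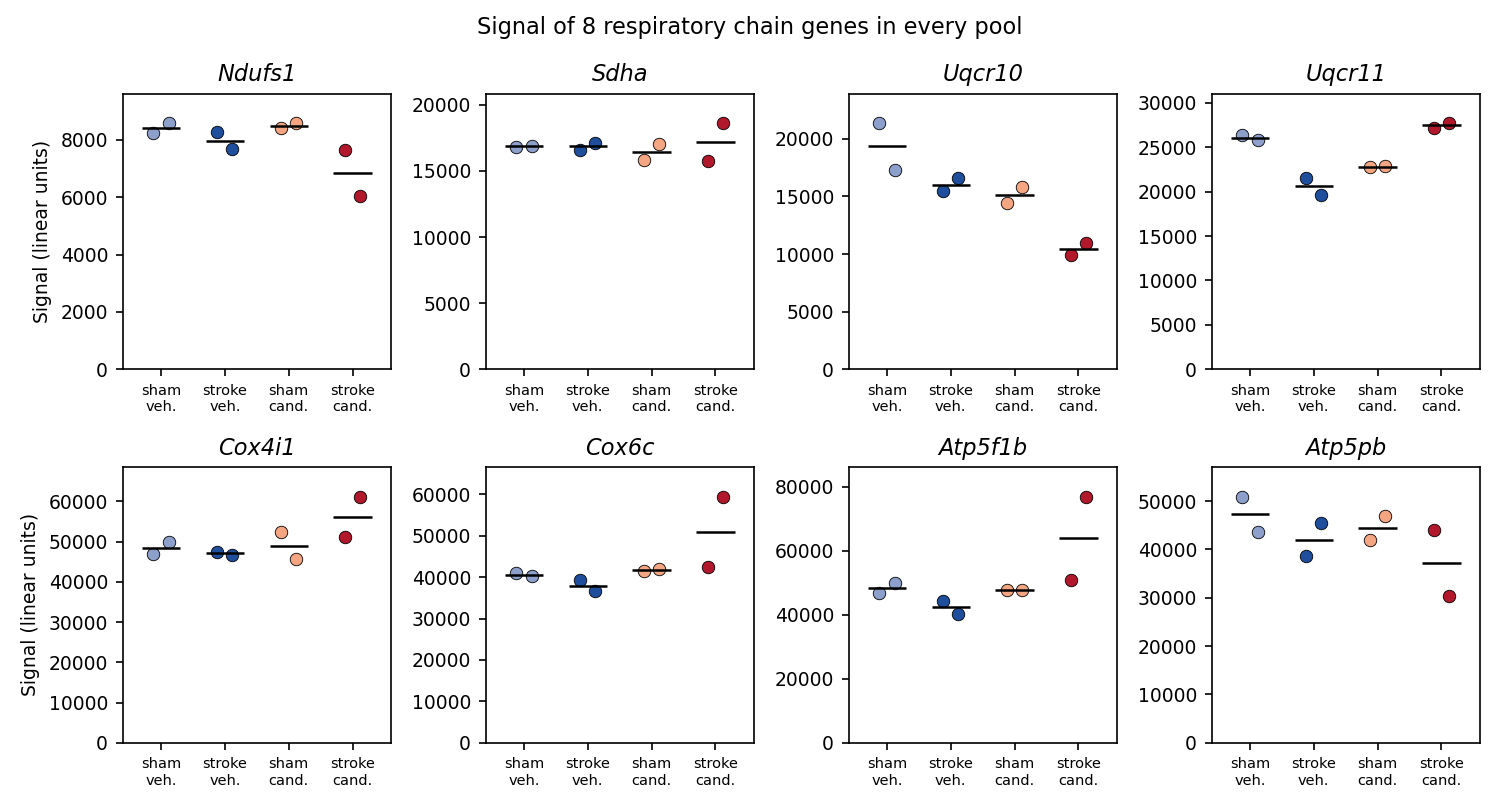
Linear signal (y axis, starting at 0) of 8 members in every pool, with 2 points per group (x axis) and a bar at their mean. Uqcr10 is lowest and Uqcr11 highest in both stroke candesartan pools. In Atp5f1b, Cox6c and Cox4i1 the second stroke candesartan pool stands above all others and in Ndufs1 and Atp5pb below them.

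The precision of these arrays limited single-gene statements. The 95% interval of a member's difference between a pair of groups, not adjusted for the number of genes, reached a median of 0.29 (log2), a factor of 1.22, to either side. For stroke with vehicle, the interval of 75 of 79 members lay within a 1.5-fold change either way, all but Cox4i2, Cox6c-ps1, Ndufa3 and Ndufs8. With candesartan it did so for 66 members and for candesartan after stroke for 60. Smaller differences than these were not resolved by 2 pools in a group.

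Cell type markers were read on the same arrays. The 13 neuron markers on the array were all above the filter, with a summed signal of 270418 to 299102 in sham vehicle, 265099 to 278220 in stroke vehicle, 273149 to 276025 in sham candesartan and 304760 to 342011 in stroke candesartan. Their median stroke difference was -0.11 with vehicle and 0.098 with candesartan, and the median for candesartan after stroke was 0.10, with the signs of the respiratory chain medians. The 11 oligodendrocyte markers, all above the filter, summed to 295695 to 296447 in sham vehicle, 291561 to 322594 in stroke vehicle and 307466 to 319834 in sham candesartan, and to 313766 and 402258 in stroke candesartan 1 and 2. Most of them lay the other way from that sum: their medians were 0.090 for stroke with vehicle (9 of 11 above 0), -0.12 with candesartan (3 of 11) and -0.20 for candesartan after stroke (4 of 11). The medians of the astrocyte markers were -0.18, -0.15 and 0.0022 in the same comparisons. Summed blood cell markers (6 on the array, 3 above the filter) were lower in stroke candesartan, at 82036 to 84038, than in stroke vehicle, at 91353 to 98183, and stood at 94821 to 105351 and 96613 to 111792 in sham vehicle and sham candesartan. The 12 astrocyte markers, all above the filter, summed to 201788 to 213477 in stroke vehicle against 238830.0 to 243169 in sham vehicle, and to 198314 to 272251 in stroke and 229551 to 243104 in sham candesartan. Of 13 microglia and macrophage markers, 9 were above the filter, and their sum was 28459 to 29535 and 25391 to 26124 in sham and stroke vehicle, 26690.0 to 31655 and 25532 to 26611 in sham and stroke candesartan. The 12 endothelial and mural markers, 9 of them above the filter, summed to 17945 to 18155, 18198 to 18788, 18347 to 20976 and 18505 to 20089 in the same order. The 8 choroid plexus and ependyma markers, 4 of them above the filter, summed to 58653 to 64247, 64763 to 68094, 63796 to 77238 and 55974 to 69773. Neuron and glia markers were thus present on every array, as the brain label says. The part of any of these in the chain genes' values was not tested.

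Other genes of mitochondrial function were likewise not called in any comparison. Of 32 assembly and maintenance factors on the array outside the members, 30 were tested and had medians of 0.017 with vehicle and -0.013 with candesartan. Cox14, needed to assemble complex IV, gave 5320.4 and 5742 and 6126 and 4870.1 in sham and stroke vehicle and 5286 and 5686 and 8610.2 and 7666 in sham and stroke candesartan. Both stroke candesartan pools were the highest arrays, and the stroke difference with candesartan was 0.54 ± 0.13 (SE; limma adjusted p = 0.198). Foxred1, an assembly factor of complex I, gave 1087 and 973 in sham and 775 and 183 in stroke candesartan, a difference of -0.81 ± 0.30 (SE; limma adjusted p = 0.330). The mitochondrially encoded catalytic subunits of complex IV had a probe set each. COX1 gave 121223 and 101533 in sham vehicle, 140739 and 128413 in stroke vehicle, 125695 and 127388 in sham candesartan and 132357 and 174273 in stroke candesartan, and COX2 reached 259588 on stroke candesartan 2 against at most 141001 elsewhere. Its stroke difference with candesartan was 0.48 ± 0.23 (SE; limma adjusted p = 0.424).

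Among 24 genes of the citric acid cycle and pyruvate dehydrogenase, all tested, the medians were -0.027 with vehicle and 0.015 with candesartan. The RNA signal of citrate synthase (Cs) was level between 15586 and 17634, which does not measure mitochondrial content. Suclg2, a subunit of succinate-CoA ligase, was lower in stroke vehicle, at 4996 and 4942, than in sham vehicle, at 6600.1 and 6563, with a difference of -0.38 ± 0.14 (SE; limma adjusted p = 0.562). Pdp1, a phosphatase that activates pyruvate dehydrogenase, lay higher in that comparison, at 0.39 ± 0.14 (SE; limma adjusted p = 0.562). Of 16 carriers, channels and uncoupling proteins, 15 were tested, with medians of -0.033 and 0.11. Slc25a11, which carries oxoglutarate against malate, had the smallest p among them for stroke with vehicle, at -0.36 ± 0.13 (SE; limma adjusted p = 0.542). The ATP and ADP exchangers Slc25a4 and Slc25a5 gave 50621 and 74845 and 36065 and 49416 in the stroke candesartan pools against at most 49692 and 33234 elsewhere.

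The 70 tested of 71 mitochondrial ribosomal protein genes had medians of -0.056 and -0.020, and 10 tested antioxidant enzymes -0.039 and -0.091. Mrpl2, a protein of the large ribosomal subunit, had a stroke difference of 0.76 ± 0.22 (SE; limma adjusted p = 0.242) with candesartan. Sod2, the superoxide dismutase of mitochondria, gave 6418 and 6233 and 7860.4 and 7414 in sham and stroke vehicle and 5055 and 6495 and 5529 and 5119 in sham and stroke candesartan, with candesartan minus vehicle after stroke at -0.49 ± 0.13 (SE; limma adjusted p = 0.249). Of 11 regulators of mitochondrial biogenesis, 7 were tested. Tfam, which maintains and transcribes mitochondrial DNA, stayed between 1819 and 2154, and Ppargc1a, the coactivator PGC-1alpha, was below the filter on this array, at most 258. At an unadjusted p under 0.05, limma found 1 higher and 3 lower assembly factors, 5 higher ribosomal protein genes, 1 higher carrier and 1 lower gene of the citric acid cycle list (Pdk4, a kinase that switches off pyruvate dehydrogenase) for stroke with candesartan. Of all probe sets, 5.50% and 6.92% passed higher and lower there. For candesartan after stroke it found 1 higher and 5 lower assembly factors, 4 higher and 1 lower carriers, 3 higher and 2 lower ribosomal protein genes, 1 higher and 1 lower antioxidant enzymes, 1 higher gene of the citric acid cycle list and COX2 higher (5.43% and 7.68% of all). With vehicle it found 1 lower ribosomal protein gene, 1 lower carrier, and 1 higher and 2 lower genes of the citric acid cycle list (4.53% and 2.51% of all).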

How the data were processed

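The rule for the respiratory chain genes and the lists of other mitochondrial genes and cell markers were chosen with earlier results of these data known. Total RNA of 8 pools was hybridised to Affymetrix RAE 230A arrays. The deposited intensity values are probe set signals on a linear scale, scaled to a like trimmed mean on every array as the values show, and no error or detection call was used. GCOS, Affymetrix's operating software, appears among the tools in the submitters' processing notes; its settings are not given in the sources used here. Probe sets were named through the platform annotation: 12783 of 15866 carried 1 symbol, 312 several and 2771 none. Promoters came from RefSeq (GRCr8).

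After setting aside 57 control probe sets, log2(signal + 369.9) was fitted as 4 group means with limma 3.58.1 in R 4.3.3, with eBayes and an intensity trend, over 10310 probe sets above 916.3 on at least 2 arrays, with 4 residual degrees of freedom. p-values were adjusted by Benjamini-Hochberg. Differences between 2 pools a group measure the spread of these pools only. The script was tested on simulated data. Pool numbers did not pair the arrays: the correlations of same-numbered deviations ran from -0.095 to 0.14. Other settings tried were the scaling, offset, filter, variance trend, groups in the fit, probe set choice, pool block and leaving out each array.

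Genes were named where they had the smallest p of a complex or the 5 largest differences either way in the 3 main comparisons, where they belonged to a fixed set of core and isoform genes, or where they had the smallest p of a further list. Other named genes were chosen after their values were seen: Cox5b, Cox6c-ps1, Uqcrh, Atp5f1c, Atp5me, COX1, COX2, Cs, Sod2, Tfam and Ppargc1a. So were the testis, muscle and hypoxia forms below the filter other than Cox6a2 and Cox7a1.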

Additional observations from a re-analysis of the deposited data

Results flagged for a closer look

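The stroke difference lay below 0 with vehicle and above 0 with candesartan in the medians of the respiratory chain genes. Both stroke vehicle pools had member medians below both sham vehicle pools, and both stroke candesartan pools had member medians above both sham candesartan pools, by a small margin over sham candesartan 2 (0.041 and 0.13 against 0.037). The latter separation was lost under quantile normalization and cyclic loess. The median difference between the stroke effects was 0.16 (log2) over all 79 members, 0.20 over the complex I genes and 0.18 over the complex IV genes. As a property of these groups of genes the difference was not tested, and no single member was called for it. The value over all members was 0.072 without sham candesartan 1 and 0.027 under quantile normalization.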

How the results depend on the processing

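Several median differences moved with the scaling, and the cause was not tested. Under quantile normalization they were 0.0013 for stroke with candesartan, 0.033 for candesartan after stroke and 0.027 for the interaction. Under cyclic loess they were -0.0086 for stroke with vehicle, 0.0074 with candesartan, 0.034 for candesartan after stroke and 0.036 for the interaction. With arrays centred on their medians they were -0.13, 0.16, 0.22 and 0.29 in that order.

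Leaving out 1 array gave medians of -0.089 to -0.036 for stroke with vehicle, 0.053 to 0.17 with candesartan, -0.018 to 0.046 over both, 0.095 to 0.17 for candesartan after stroke, -0.082 to 0.034 after sham and 0.072 to 0.23 for the interaction. Called members ranged from 0 to 10 for stroke with candesartan, 0 to 2 over both, 0 to 16 for candesartan after stroke and 0 to 4 for the interaction, always 0 except without stroke candesartan 1. For stroke with vehicle and candesartan after sham they were 0 throughout.

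With the pool number as a replicate block, 0 members were called and the median with vehicle was -0.063, as without it; the block changed no call. No member was called under the other scalings either. The other offsets and filters gave 0 called members and moved no median by more than the pool spread. Calls were also 0 without the variance trend and, for the 4 comparisons of a pair of groups, in fits of those groups alone. The mean of all probe sets of a gene was run for the medians only and moved none. The number of arrays limits the precision.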
